A study of Homo sapiens with 24 samples.

Results

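The mRNAs of 10 regulators of the BCL2 family, which decide at the mitochondrion whether a stressed cell lives or dies, were followed through knockdown of IGF2BP1 in 4 human cancer cell lines. They are the pro-survival BCL2, BCL2L1 and MCL1, the pore-forming effectors BAX and BAK1, and the BH3-only genes BID, BCL2L11, PMAIP1, BBC3 and BAD. They were taken by gene symbol, each was found in all 4 deposited tables, and they are 10 of the 58174 genes listed in each table.

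Total RNA freed of ribosomal RNA was sequenced 72 h after transfection in A549, ES2 and MV3 and 96 h after transfection in PANC1. The siC groups received a control siRNA and the siI1 groups a pool of siRNAs against IGF2BP1, with 3 libraries in each of the 8 groups. A549 comes from a lung adenocarcinoma, ES2 from an ovarian clear cell carcinoma, MV3 from an amelanotic melanoma and PANC1 from a pancreatic ductal adenocarcinoma, and no group carried a further agent or allele per the labels. Since the later harvest was used in PANC1 alone, line and time cannot be told apart for PANC1, and 1 line stands for each tumour type.

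In this family the pro-survival proteins hold BAX and BAK1 in check. BH3-only proteins are made or switched on by stress, bind the pro-survival proteins or the effectors, and so free BAX and BAK1 to open the outer mitochondrial membrane, after which cytochrome c sets off the caspases. IGF2BP1 is an RNA-binding protein of the embryo and of many tumours that binds mRNAs mostly in their 3'UTRs and can shield them from decay, including decay directed by microRNAs, and is itself a classic target of the let-7 family.

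The values are FPKM, that is reads divided by gene length in kilobases and by a library total, and 3105215 to 20082702 reads per library were assigned to genes (fewest in A549, most in MV3). IGF2BP1 fell in each line, by 1.83 in PANC1, 1.55 in ES2, 1.52 in MV3 and 1.32 in A549 on the log2 scale, with adjusted p between 5.93e-05 and 0.000319. All 6 markers of simple epithelium were detected at 0.5 FPKM or more in A549 and PANC1 siC cells and 3 of 6 in ES2 and MV3. None of 4 alveolar markers in A549, none of 3 clear cell carcinoma markers in ES2 and none of 7 melanocyte markers in MV3 reached that level, whereas 3 of 4 duct markers did in PANC1. Leukocyte markers stayed under it in all 4 lines. Of 3 endothelial markers, CDH5 alone reached it, in ES2, where the summed list ranged from 8.62 to 11.4 FPKM in siC and from 14.6 to 16.4 in siI1. The sum of 3 fibroblast markers, COL1A1 among them, ranged from 2.88 to 4.52 FPKM in ES2 siC and from 18.3 to 26.9 in siI1, and from 1.9 to 2.1 against 8.02 to 8.65 in MV3. The part of these markers in the ES2 and MV3 results was not tested. Transcripts of the 7SL genes made up 58.1% to 67.3% of the summed FPKM in PANC1 siC libraries and 74.6% to 78.8% in siI1 libraries, which did not overlap, and their part in the PANC1 results was not tested. When every PANC1 library was set to the same sum (TPM), the median over all genes went from -0.04 to -0.68 (log2 fold change), so PANC1 values are also given below relative to that median.

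Control cells of the 4 lines held different sets of these mRNAs. The tables were normalised separately, so levels across lines are a description, and the order is given only where it held on TPM as well. BCL2 was near the bottom of the range in each line, with 1.22 ± 0.0759 FPKM in MV3, 1.06 ± 0.132 in ES2, 0.221 ± 0.106 in A549 and 0.0173 ± 0.011 in PANC1 (SD, n = 3). In PANC1 this rested on 1 to 3 reads per siC library. MCL1 and BCL2L1 carried nearly all of the summed mRNA of the 3 pro-survival members in siC cells. Pro-survival relatives outside the 10 members were not in that sum. Of these, BCL2L2 stood between 5.26 FPKM in PANC1 and 11.6 in MV3, and BCL2A1 between 0 in MV3 and 8.32 in A549 (siC means). MCL1 stood at 76.0 ± 0.847 FPKM in MV3, 65.9 ± 3.21 in A549, 56.6 ± 2.71 in ES2 and 31.7 ± 2.16 in PANC1 (SD, n = 3), and PANC1 was lowest on both scales. BCL2L1, whose main protein is BCL-xL, was 62.2 ± 4.88 FPKM in A549, 53.2 ± 3.34 in PANC1, 53.1 ± 3.61 in MV3 and 28.6 ± 0.512 in ES2 (SD, n = 3). The PANC1 and MV3 values of BCL2L1 overlapped on both scales, and ES2 lay below them on both.

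BAX levels ran in the order A549, MV3, ES2 and PANC1, from 47.6 ± 2.22 to 12.1 ± 1.23 FPKM (SD, n = 3), with MV3 and ES2 overlapping on TPM only. BAK1 was highest in PANC1 with 16.5 ± 1.55 FPKM, followed by MV3 with 13.4 ± 0.718 (SD, n = 3), though MV3 and A549 overlapped on TPM. ES2 and A549 came last for BAK1, at 9.52 ± 0.507 and 8.99 ± 0.645 FPKM, and did not separate from each other on either scale. PANC1 was thus the line in which BAK1 exceeded BAX. Among BH3-only genes the line with the highest level differed from gene to gene. BID, cut by caspase-8 to link death receptors to mitochondria, ranged from 14.3 ± 0.173 FPKM in A549 to 1.77 ± 0.0363 in MV3. PMAIP1, which encodes NOXA, ranged from 24.1 ± 0.84 in ES2 to 3.54 ± 0.53 in PANC1, and BAD from 37.1 ± 1.06 in MV3 to 19.7 ± 0.694 in A549 (SD, n = 3); on TPM, PANC1 rather than A549 was last for BAD. BBC3, which encodes PUMA, was highest in A549 at 5.16 ± 0.319 FPKM and between 1.20 and 1.97 in the other lines. BCL2L11, which encodes BIM, had the lowest mean of the BH3-only members in A549, ES2 and MV3, at 2.35 ± 0.291, 0.743 ± 0.166 and 0.515 ± 0.122 FPKM. It stood above BBC3 in PANC1 alone, at 3 ± 0.286 (SD, n = 3). In ES2 its siC values, 0.562 to 0.889 FPKM, overlapped those of BBC3, 0.783 to 1.68.

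**Figure D1:**
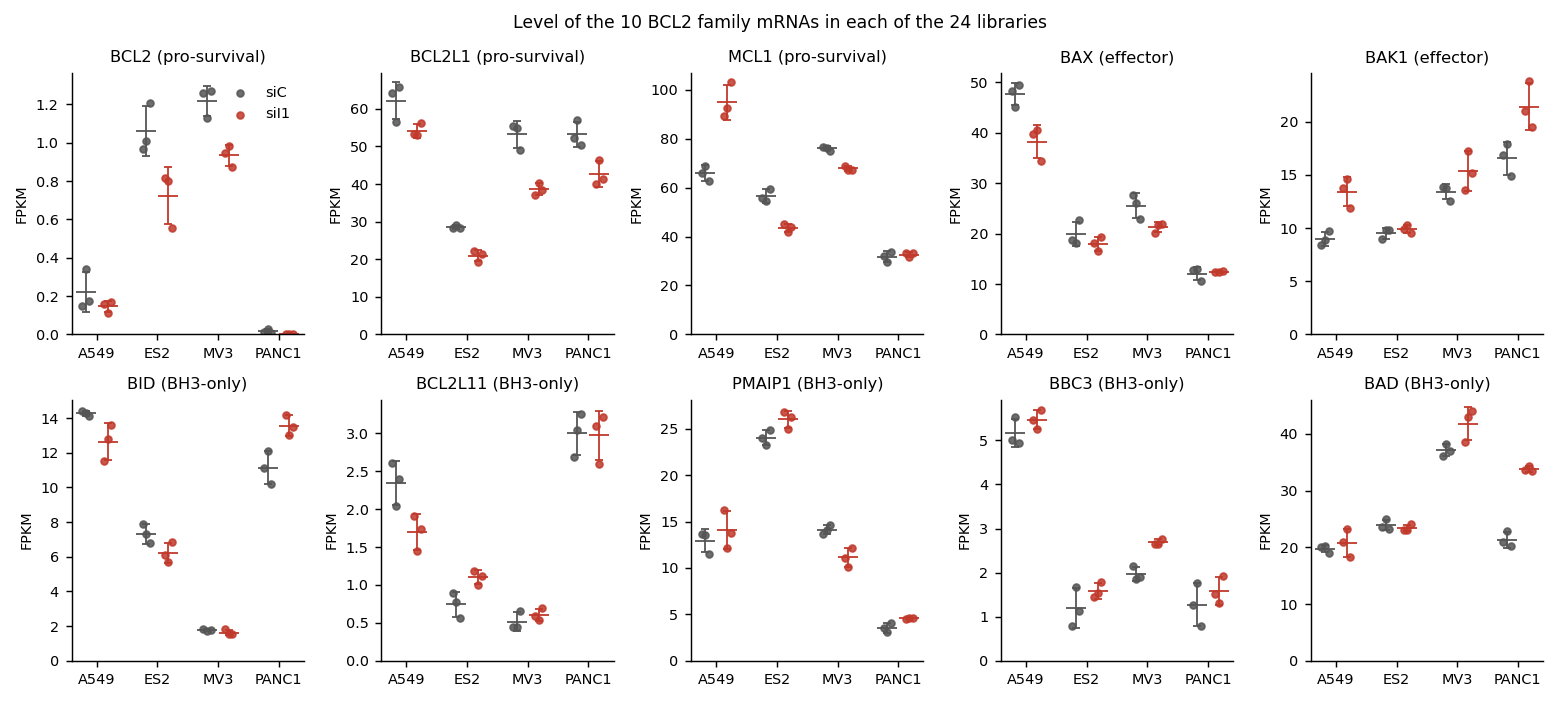
FPKM of each of the 10 mRNAs (vertical axes start at 0 and differ between panels) in the 3 siC (grey) and 3 siI1 (red) libraries of each cell line, with the group mean and SD as a horizontal bar and whiskers. MCL1 points lie higher in siI1 than in siC in A549 and lower in ES2 and MV3, and BAD points are 20.2 to 22.8 FPKM in PANC1 siC against 33.4 to 34.4 in siI1. That BAD direction turns when PANC1 libraries are set to the same sum of all FPKM (TPM) and is kept with the same protein-coding sum (log2 fold change 0.61).

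Knockdown was compared with control within each line by limma on log2(FPKM + 0.5), with genes of at least 0.5 FPKM on average tested and p adjusted by Benjamini-Hochberg over all of them. In the text, rose and fell are used for adjusted p under 0.05. BCL2 was under the minimum in A549 and PANC1, so 9 members were tested there and 10 in ES2 and MV3. In A549, 1 member fell and 2 rose, against 13.8% of all genes tested that passed in either direction, 7.83% lower and 5.93% higher. In ES2, 2 fell and none rose, where 23.5% of all genes passed, 13% lower and 10.5% higher; voom on the recovered reads called 4 members there, 3 lower and 1 higher, and 3 of the 10 had an unadjusted p under 0.05 in the limma fit, BCL2L1, MCL1 and BID, all lower in siI1. In MV3, 4 fell and 1 rose, against 35.7% of all genes, 19.5% lower and 16.3% higher. In PANC1, 1 fell and 3 rose, against 24.8% of all genes, 13.4% lower and 11.3% higher; on TPM 6 members fell and none rose there, as did 8844 and 95 of all genes. The split moved with the scaling in other lines too: with the same protein-coding sum, 0 fell and 2 rose in A549, 2 fell and 1 rose in ES2, and 1 fell and 3 rose in MV3, where TPM gave 3 and 2. In PANC1 the same protein-coding sum kept the fall of BCL2L1 (-0.36, adjusted p = 0.0103). It also kept the rises of BAD (0.61, 0.000892), BAK1 (0.32, 0.0333) and BID (0.24, 0.0356), and no other member passed. The median over all PANC1 genes was -0.07 on that scale. The 10 members are protein-coding, and a larger share of protein-coding genes than of all genes passed in each line. Of 11756 protein-coding genes tested in A549, 1340 fell and 933 rose. In ES2 2005 fell and 1498 rose of 11171, in MV3 2941 and 2147 of 10960, and in PANC1 1927 and 1510 of 11109. Over the members tested, the median log2 fold change stood at 0.06 (A549), -0.08 (ES2), -0.13 (MV3) and 0.26 (PANC1), beside -0.01, -0.02, 0.01 and -0.04 over all genes tested. No member passed in the same direction in all 4 lines, and BCL2L1 was the one that did so in 3; on TPM it was called lower in all 4.

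**Figure D2:**
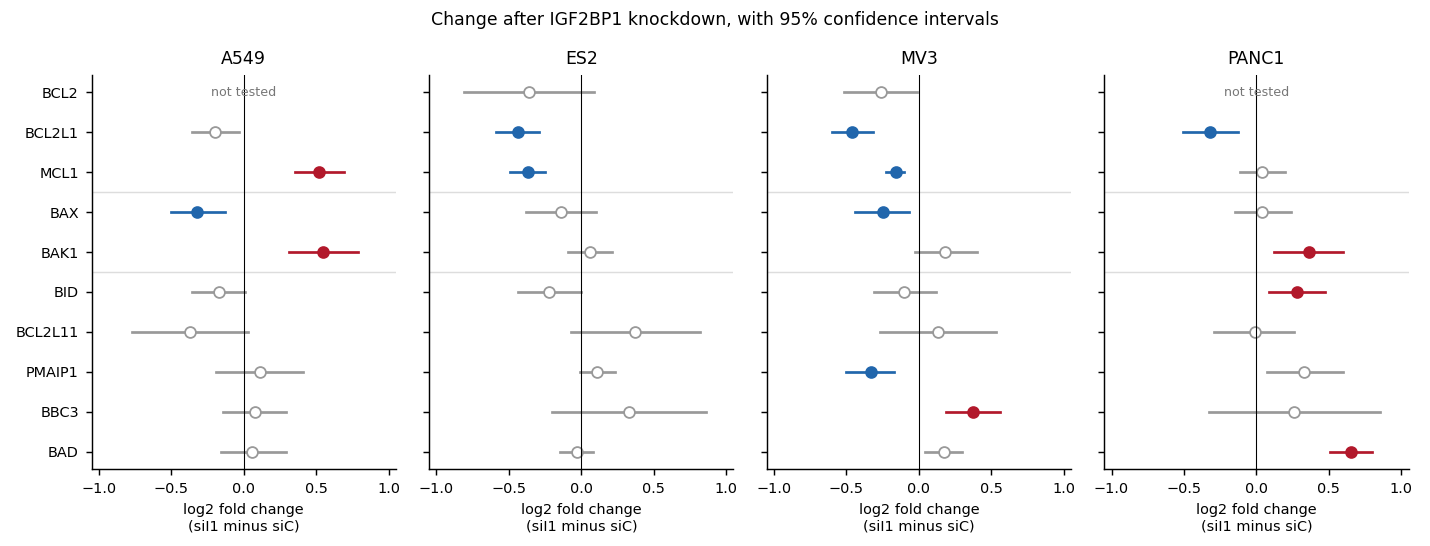
Log2 fold change (siI1 minus siC, horizontal axes) of the 10 mRNAs in each line with 95% confidence intervals from limma; filled blue points fell and filled red points rose at adjusted p under 0.05, open points did not pass. BCL2L1 lies left of 0 in all 4 lines, while MCL1 lies at 0.52 in A549 and at -0.37 in ES2. In PANC1, BAX, MCL1, BAK1, BID, PMAIP1, BBC3 and BAD change sign when libraries are set to the same sum of all FPKM (TPM). With the same protein-coding sum, BCL2L1, BAK1, BID and BAD keep their direction and call there.

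BCL2L1 fell in ES2, MV3 and PANC1, to between 0.729 and 0.802 of control on the log2(FPKM + 0.5) scale. In ES2 the siC libraries held 28.4, 29.2 and 28.2 FPKM and the siI1 libraries 22.1, 19.3 and 21.5. In MV3 they held 55.5, 55.0 and 49.0 against 37.1, 40.3 and 38.3, and in PANC1 52.3, 56.9 and 50.4 against 39.9, 46.5 and 41.4. Each siI1 library lay below each siC library in these lines. In A549 the groups were also apart, with 64.1, 56.6 and 65.8 FPKM in siC and 53.3, 52.9 and 56.3 in siI1, but the change did not pass (log2 fold change -0.20 ± 0.07 SE, adjusted p = 0.123). That A549 change passed on TPM (adjusted p = 0.042), with voom (0.0342) and without siC replicate 2 (0.0394). The log2 fold change was -0.44 ± 0.06 in ES2 (adjusted p = 0.00418), -0.46 ± 0.06 in MV3 (adjusted p = 0.00177) and -0.32 ± 0.08 in PANC1 (adjusted p = 0.029). In PANC1 the call was lost, with adjusted p from 0.0627 to 0.0947, without siC replicate 1, siC replicate 2, siI1 replicate 1 or siI1 replicate 3. The size of the fall was not shown to differ between lines (moderated F test over the 24 libraries, adjusted p = 0.106), except on TPM (8.48e-06). Relative to the median of all genes, the PANC1 value was -0.39 on TPM.

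BCL2L1 lies on chromosome 20 (chr20:31664452-31723989, minus strand, hg38), and its longest 3'UTR in GENCODE release 44 has 1497 bases, against a median of 1236 over genes. It is shown here because, of the 10 members, it alone holds a match to the let-7 seed, in its 3'UTR. The mature miRNA (RefSeq, seed at bases 2 to 8 in capitals) and the stretch of the 3'UTR that ends in the match (match in capitals, hg38, mRNA strand) read, 5′ to 3′:
let-7a-5p: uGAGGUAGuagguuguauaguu
BCL2L1, chr20:31664997-31665018: ccccagggtcttccCTACCTCa
The word CTACCTC was searched on the mRNA strand and stands in 10.7% of the 19188 3'UTRs of at least 20 bases. In BCL2L1 it is followed by an A, the form known as an 8mer. The match is a feature of the sequence and was not shown to be a site in these cells, and no miRNA level was measured here. In GENCODE, 41.3% of the exon bases of BCL2L1 also belong to ABALON, a noncoding gene on the opposite strand, which held 13 reads or fewer in each library, beside 460 to 2856 for BCL2L1.

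MCL1, a short-lived protein that cells must keep making, moved in opposite directions in different lines. In A549 its mRNA was 66.1, 68.9 and 62.5 FPKM in siC and 89.3, 92.3 and 103 in siI1. In ES2 it was 55.9, 54.3 and 59.6 in siC and 45.1, 41.9 and 44 in siI1. MCL1 thus rose in A549, by 0.52 ± 0.07 SE on the log2 scale (adjusted p = 0.0065), and fell in ES2, where the log2 fold change was -0.37 ± 0.05 (adjusted p = 0.00422). In MV3 the fall was smaller, from 76.7, 76.3 and 75.1 FPKM to 68.9, 67.2 and 67.3, with a log2 fold change of -0.16 ± 0.03 (adjusted p = 0.00369). The MV3 call was lost when libraries were set to the same sum of all FPKM (adjusted p = 0.0623) or of protein-coding FPKM (log2 fold change -0.03, adjusted p = 0.488). On the latter scale the MV3 value was -0.16 relative to the median of all genes. In PANC1 the groups overlapped, with 31.9, 29.5 and 33.8 FPKM in siC against 33.2, 31.5 and 33.2 in siI1, and the 95% interval of the log2 fold change ran from -0.11 to 0.20. The difference between the 4 lines passed its own test (moderated F, adjusted p = 4.15e-07), as it did under all 33 alternative settings, and 45% of the 12816 genes tested in all 4 lines passed it.

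BCL2, the founding member of the family, did not pass in any line. In ES2 it ranged from 0.966 to 1.21 FPKM in siC and from 0.553 to 0.817 in siI1, on 55 to 103 reads per library, with a log2 fold change of -0.36 ± 0.19 SE (adjusted p = 0.223). In MV3 it ranged from 1.13 to 1.27 in siC and from 0.874 to 0.981 in siI1, with -0.26 ± 0.11 (adjusted p = 0.101). The groups did not overlap in either line, and voom on the recovered reads called BCL2 lower in both, at adjusted p of 0.0087 and 0.00229. In A549 the 6 libraries held 6 to 16 reads each. In PANC1 the siI1 libraries held none and the siC libraries 1, 3 and 1, so no fold can be given.

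BAX and BAK1, which do the same work at the membrane, did not move together. BAX fell in A549 and MV3. In A549 it was 48.2, 45.2 and 49.5 FPKM in siC and 39.8, 40.5 and 34.4 in siI1 (log2 fold change -0.32 ± 0.08 SE, adjusted p = 0.0448). In MV3 it was 27.7, 26.1 and 22.8 in siC and 20.1, 21.8 and 22.0 in siI1 (-0.25 ± 0.08, adjusted p = 0.0453). The groups did not overlap, but both calls stood close to the threshold. In A549 the call was lost when any 1 of the 6 libraries was left out, with adjusted p from 0.0727 to 0.138. In MV3 it was lost without any library but siC replicate 3, with adjusted p from 0.0804 to 0.124. BAX was 18.8, 18.2 and 22.7 FPKM in ES2 siC against 18.1, 16.5 and 19.3 in siI1, and 12.7, 12.9 and 10.6 in PANC1 siC against 12.3, 12.4 and 12.5 in siI1, groups that overlapped in both lines (adjusted p of 0.371 and 0.738). The A549 call was also lost on TPM (0.0768) and with the same protein-coding sum (0.0685), and the MV3 call with the latter (0.136). With that sum the MV3 value was -0.12, or -0.24 relative to the median of all genes. A difference between lines was not shown for BAX (adjusted p = 0.107), but passed on TPM (0.012) and without ES2 siC replicate 3 (0.0488).

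BAK1 rose in A549, from 8.42, 8.86 and 9.69 FPKM to 13.8, 14.6 and 11.9. Its log2 fold change there was 0.55 ± 0.10 SE (adjusted p = 0.0176), on 76 to 147 reads per library. BAK1 also rose in PANC1, from 16.9, 17.9 and 14.9 FPKM to 21.0, 23.8 and 19.5 (log2 fold change 0.36 ± 0.10, adjusted p = 0.0419), a direction that turned on TPM (-0.37), where the value relative to the median of all genes was 0.31. Both groups of libraries stood apart in these lines. The A549 call was lost without siC replicate 1 or 2 or siI1 replicate 1 or 2 (adjusted p from 0.062 to 0.071), and the PANC1 call without any library but siC replicate 2 (0.0511 to 0.108). In MV3 BAK1 was 13.9, 13.8 and 12.6 FPKM in siC and 13.6, 17.3 and 15.2 in siI1, which overlapped, with a log2 fold change of 0.18 ± 0.09 (adjusted p = 0.16; 0.0169 with the same protein-coding sum). In ES2 it was 8.94, 9.85 and 9.78 against 9.93, 10.3 and 9.58, with a change of 0.06 ± 0.06 (adjusted p = 0.552). The response of BAK1 differed between lines (adjusted p = 0.0231), though not without A549 siC replicate 1 (0.0549) or A549 siI1 replicate 2 (0.0565), with voom (0.116) or with libraries set to the same protein-coding sum (0.0846). A pseudogene copy, BAK1P1, was listed with 2 to 41 reads per library, and reads of BAK1 and BAK1P1 may have been split between them.

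MCL1 and BAK1, the members that rose in A549, share 3 of the 8 seed matches that were searched in all members, among them those of miR-29b and miR-125b. They are shown because the same words stand in a pro-survival and an effector mRNA. The mature miRNAs (RefSeq, seed in capitals) and 3'UTR stretches (match in capitals, hg38, mRNA strand) read, 5′ to 3′:
miR-29b-3p: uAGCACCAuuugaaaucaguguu
MCL1, chr1:150576039-150576060: ggctagtctaaccaTGGTGCTa
BAK1, chr6:33573608-33573629: acctcaacattgcaTGGTGCTa
miR-125b-5p: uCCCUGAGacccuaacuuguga
MCL1, chr1:150574755-150574776: tgtcttacgcttctCTCAGGGa
BAK1, chr6:33573166-33573187: tttgcagttggactCTCAGGGa
TGGTGCT stands in 15.1% and CTCAGGG in 15.7% of the 19188 3'UTRs. BCL2 holds both words as well and BBC3 the former, so neither word marks the members that rose. The 3'UTR has 3199 bases in MCL1 and 1450 in BAK1, both on minus strands, and that of BAX, with 701 bases, holds neither word.

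BID rose in PANC1 and did not pass in the other lines. In PANC1 it was 11.1, 12.1 and 10.2 FPKM in siC and 14.2, 13.0 and 13.5 in siI1, without overlap. The log2 fold change was 0.28 ± 0.08 SE (adjusted p = 0.0445), and it turned on TPM (-0.45, or 0.23 relative to the median of all genes). The call was lost without any library but siC replicate 2, with adjusted p from 0.0805 to 0.132. In A549 BID was 14.4, 14.3 and 14.1 FPKM in siC and 11.5, 12.8 and 13.6 in siI1, in ES2 7.88, 7.30 and 6.77 against 6.10, 5.71 and 6.84, and in MV3 1.81, 1.74 and 1.78 against 1.81, 1.52 and 1.56. The log2 fold changes in these lines were -0.17, -0.22 and -0.10, with adjusted p of 0.202, 0.138 and 0.446. The difference between lines passed (adjusted p = 0.00385), except on TPM (0.169).

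PMAIP1, a target of p53 and of the integrated stress response, fell in MV3. There it was 13.7, 14.1 and 14.6 FPKM in siC and 11.1, 10.1 and 12.2 in siI1 (log2 fold change -0.33 ± 0.07 SE, adjusted p = 0.0113). The call was lost with the same protein-coding sum (-0.20, or -0.33 relative to the median of all genes, adjusted p = 0.0796). In PANC1 it was 3.48, 3.05 and 4.10 in siC and 4.45, 4.61 and 4.65 in siI1. These groups were apart too, in the other direction, but 0.33 ± 0.11 did not pass (adjusted p = 0.0721), and it turned on TPM (-0.34). In ES2 the values were 24, 23.3 and 24.9 against 26.8, 25.0 and 26.3, and in A549 13.7, 13.6 and 11.5 against 16.3, 12.2 and 13.8, with log2 fold changes of 0.11 in both (adjusted p of 0.159 and 0.622); the ES2 change passed with the same protein-coding sum (0.0141). The response of PMAIP1 differed between lines (adjusted p = 0.00414), with 0.0811 on TPM and 0.0543 with the same protein-coding sum.

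BBC3, the other BH3-only target of p53 here, rose in MV3. It went from 2.15, 1.85 and 1.91 FPKM in siC to 2.65, 2.65 and 2.77 in siI1, on 92 to 173 reads per library. The log2 fold change was 0.37 ± 0.08 SE (adjusted p = 0.0112), and the call was kept under all 15 alternative settings. Within MV3, the BH3-only genes PMAIP1 and BBC3 thus had log2 fold changes of opposite sign, with the PMAIP1 call resting on the scaling. In the other lines BBC3 was 5.01, 5.53 and 4.95 against 5.47, 5.26 and 5.68 in A549, 0.783, 1.68 and 1.13 against 1.45, 1.53 and 1.79 in ES2, and 1.27, 1.77 and 0.786 against 1.52, 1.31 and 1.93 in PANC1. All 3 pairs of groups overlapped, and log2 fold changes of 0.08, 0.33 and 0.26 had adjusted p of 0.637, 0.341 and 0.484. Its response was not shown to differ between lines (adjusted p = 0.735).

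BAD, whose protein is held by 14-3-3 proteins when growth factors act, had the largest change of the 10 members in PANC1. It was 20.9, 22.8 and 20.2 FPKM in siC and 33.7, 34.4 and 33.4 in siI1, on 257 to 393 reads per library. The log2 fold change was 0.65 ± 0.06 SE (adjusted p = 0.00161), and the call was kept without each library in turn. On TPM the value turned to -0.09 (adjusted p = 0.62), which is 0.59 above the median of all genes on that scale. With the same protein-coding sum it was 0.61 (adjusted p = 0.000892). In MV3 BAD was 36.1, 38.2 and 36.9 FPKM in siC and 38.5, 42.9 and 44 in siI1, apart but not called (0.17 ± 0.06, adjusted p = 0.0563). It was called higher in MV3 on TPM (adjusted p = 0.0426) and with the same protein-coding sum (0.30, adjusted p = 0.00381). The latter value was 0.18 relative to the median of all genes. In A549, with 20, 20.3 and 19.0 against 20.9, 23.2 and 18.2, and in ES2, with 23.5, 25.0 and 23.3 against 23.0, 23.1 and 24.1, the groups overlapped (adjusted p of 0.72 and 0.69). The difference between lines passed (adjusted p = 6.59e-05), though not on TPM (0.444).

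BAD is on the minus strand of chromosome 11 (chr11:64269830-64284704), and 23.7% of its exon bases lie opposite exons of GPR137. GPR137 rose with BAD in PANC1, from 12.7 ± 0.958 to 19.6 ± 1.53 FPKM (SD, n = 3; log2 fold change 0.61 ± 0.08 SE, adjusted p = 0.00422), and in MV3 by 0.34 ± 0.05 (adjusted p = 0.00226). The strand setting of the counting was not given in the sources used here, so reads of this stretch may belong to either gene, and their part in the result was not tested.

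BCL2L11 did not pass in any line in the limma fit, and its direction differed from line to line. It ranged over all libraries from 0.439 FPKM in MV3 to 3.26 in PANC1. In A549 it was 2.04 to 2.61 FPKM in siC and 1.45 to 1.91 in siI1, with a log2 fold change of -0.37 ± 0.17 SE (adjusted p = 0.209). In ES2 it was 0.562 to 0.889 in siC and 1.00 to 1.19 in siI1, with 0.37 ± 0.18 (adjusted p = 0.199), although voom called it higher there (adjusted p = 0.0323). Both pairs of groups were apart, in opposite directions, on 41 to 71 and 27 to 63 reads per library. In MV3 and PANC1 the groups overlapped, with 0.13 and -0.01, but on TPM it was called lower in PANC1 (-0.66, adjusted p = 0.0319). The difference between lines passed (adjusted p = 0.0267), but not without A549 siC replicate 1 (0.0679), A549 siC replicate 3 (0.0526), A549 siI1 replicate 2 (0.0677), ES2 siC replicate 3 (0.0533) or ES2 siI1 replicate 1 (0.0526). On the opposite strand, MIR4435-2HG covers 10.8% of the exon bases of BCL2L11. It rose in each line, by 0.87 ± 0.06 SE on the log2 scale in ES2 (adjusted p = 0.000312) and by 0.20 to 0.77 elsewhere, and its part in the BCL2L11 values was not tested.

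Shares within a class do not depend on how a library was scaled, apart from the length correction. The share of MCL1 in the pro-survival sum was 51.4% in A549 siC and 63.6% in siI1, 58.3% and 63.2% in MV3, and 37.4% and 43.4% in PANC1, each without overlap between groups. In ES2 it was 65.6% and 66.8%, which overlapped. PANC1 was the line in which BCL2L1 made up most of the sum, with 62.6% ± 3.02 in siC and 56.6% ± 2.66 in siI1 (SD, n = 3). The share of BAX in the effector sum was lower on average in siI1 in each line. It was 84.1% ± 0.881 against 74.0% ± 0.463 in A549, 65.5% ± 1.09 against 58.2% ± 2.08 in MV3 and 42.1% ± 0.641 against 36.7% ± 2.45 in PANC1 (SD, n = 3), each without overlap. In ES2 it was 67.5% ± 2.50 against 64.3% ± 2.63, which overlapped. An exact permutation test of 3 libraries against 3 cannot go below p = 0.1, the value reached wherever groups were apart, so none of these shares can pass a threshold of 0.05 within a line.

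The sums show what the single genes added up to. The pro-survival sum went from 128 ± 2.27 to 149 ± 9.04 FPKM in A549, where MCL1 rose, and from 86.2 ± 2.42 to 65.3 ± 3.06 in ES2, 130 ± 4.41 to 107 ± 1.11 in MV3 and 84.9 ± 1.25 to 75.2 ± 2.56 in PANC1 (SD, n = 3). The effector sum overlapped between groups in A549, ES2 and MV3 and was 28.6 ± 2.76 against 33.9 ± 2.15 in PANC1. The BH3-only sum was 40.2 ± 2.26 FPKM in PANC1 siC and 56.5 ± 0.531 in siI1, and it overlapped in the other lines, with means between 54.5 and 58.4. On TPM these PANC1 sums went the other way: the effector sum was 45.6 ± 4.28 in siC and 31.9 ± 1.34 in siI1, and the BH3-only sum was 64.4 ± 8.34 against 53.6 ± 5.85, which overlapped (SD, n = 3). The pro-survival sums kept their direction on TPM in each line. Of the BH3-only sum in PANC1, BAD held 53.0% in siC and 59.8% in siI1.

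**Figure D3:**
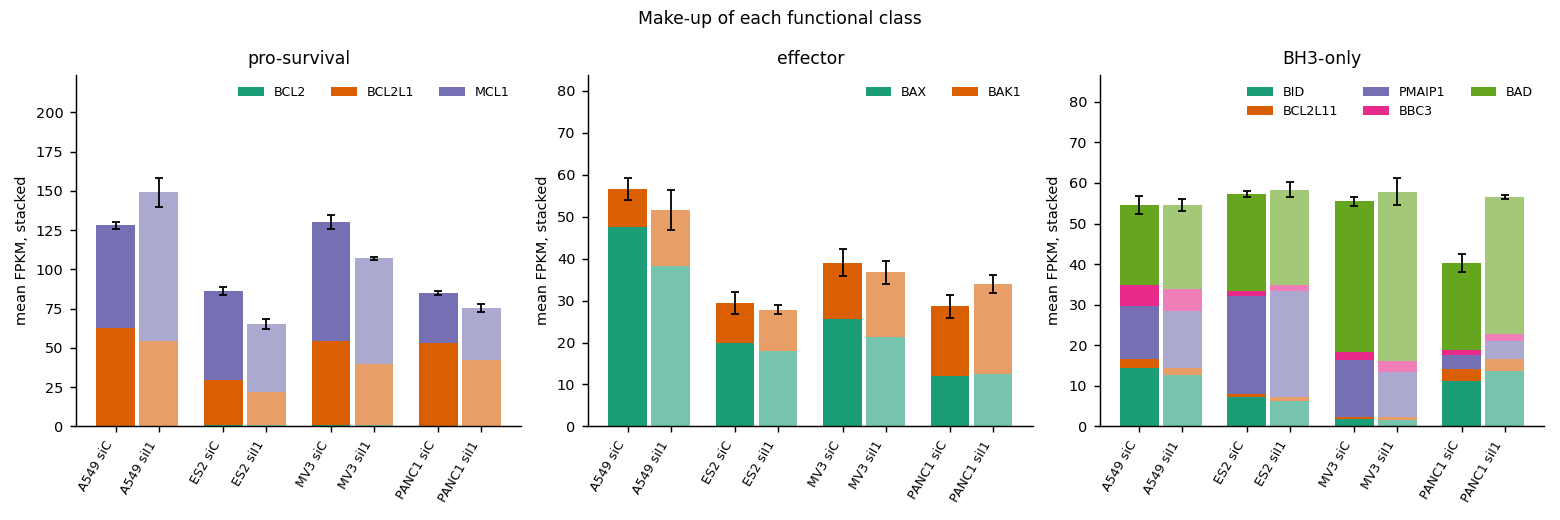
Mean FPKM of the members stacked within each functional class (vertical axes), for siC (full colour) and siI1 (pale) in each line; the black bars are the SD of the class sum over 3 libraries. The pro-survival stack is 128 FPKM in A549 siC and 149 in siI1 but shorter in siI1 in the other lines, and the BH3-only stack goes from 40.2 to 56.5 in PANC1 on the FPKM scale, where on TPM it is 64.4 in siC and 53.6 in siI1.

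The rest of the pathway was read in 56 genes of 5 lists, chosen for their known roles, of which 47 to 52 were tested per line. In A549, 8 fell and 6 rose, in ES2 18 and 8, in MV3 18 and 10, and in PANC1 9 and 5. These are 26.9%, 53.1%, 59.6% and 28.6% of those tested, beside the shares of all genes given above, which include non-coding genes. Of the 11109 protein-coding genes tested in PANC1, 1927 fell and 1510 rose, a larger share than the 28.6% of the lists. Over each line's tested genes the median log2 fold change stood at -0.09 (A549), -0.08 (ES2), -0.09 (MV3) and -0.02 (PANC1).

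Among other family members, BCL2L2, the pro-survival relative also called BCL-w, fell in the same 3 lines as BCL2L1. Its log2 fold change was -0.51 ± 0.10 SE in ES2 (adjusted p = 0.0164; 0.0527 with the same protein-coding sum), -0.47 ± 0.05 in MV3 (0.000798) and -0.45 ± 0.11 in PANC1 (0.0264), and -0.20 ± 0.10 in A549 (0.245). BNIP3L, a mitophagy receptor induced by hypoxia, rose in all 4 lines, by 0.88, 0.90, 0.61 and 0.29 in the order A549, ES2, MV3 and PANC1, where it turned on TPM (-0.43, or 0.25 above the median of all genes). Its paralog BNIP3 rose in A549 from 11.2 ± 1.81 to 31.1 ± 1.06 FPKM (SD, n = 3; adjusted p = 0.00156), rose by 0.24 in ES2 and 0.22 in MV3, and had a change of -0.12 in PANC1 (adjusted p = 0.389). BMF, a BH3-only gene linked to the cytoskeleton, rose from 0.392 ± 0.0362 to 1.75 ± 0.146 FPKM in ES2 and from 2.25 ± 0.0879 to 5.37 ± 0.498 in MV3 (SD, n = 3; adjusted p of 0.00262 and 0.000261). In A549 its change was -0.75 ± 0.30 (adjusted p = 0.176), and the difference between lines passed (adjusted p = 1.6e-06). BCL2A1, another pro-survival gene, fell in ES2 from 3.07 ± 0.73 to 0.359 ± 0.137 FPKM (SD, n = 3; adjusted p = 0.00154), on 2 to 27 reads per library. BCL2L15 fell in A549, from 1.76 ± 0.271 to 0.243 ± 0.21 FPKM on 0 to 35 reads (SD, n = 3; adjusted p = 0.0236).

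Downstream of the mitochondrion, 2 of 16 genes fell and 2 rose in A549, 6 and 3 in ES2, 6 and 2 in MV3, and 2 and 2 in PANC1. In that order of lines, 25.0%, 56.2%, 50.0% and 25.0% passed, beside 13.8%, 23.5%, 35.7% and 24.8% of all genes tested. The PANC1 share was thus close to that of all genes. CYCS, which encodes cytochrome c, fell in ES2 and MV3 by 0.63 and 0.61 on the log2 scale (adjusted p of 0.00634 and 0.000289) and stayed uncalled in A549 and PANC1. AIFM1, a flavoprotein of the intermembrane space that can carry death signals to the nucleus, fell in A549, ES2 and MV3 by 0.46, 0.52 and 0.39. CASP2 fell in A549 and MV3 by 0.76 and 0.58. ENDOG, a mitochondrial nuclease, rose in PANC1 by 0.62 ± 0.12 (adjusted p = 0.0116; on TPM -0.12, or 0.56 above the median) and fell in ES2, where its change was -0.48 ± 0.11 (adjusted p = 0.0241; 0.056 with the same protein-coding sum).

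Inhibitors of apoptosis proteins, which restrain caspases, included 2 of 5 that fell in ES2, 3 in MV3 and 2 in PANC1, 1 that rose in MV3 and none called in A549. The 5 in A549 had no unadjusted p under 0.05 in limma either, and voom on the recovered reads called none, with 1 unadjusted p under 0.05. On TPM, however, BIRC5 was called lower in A549 (log2 fold change -0.22, adjusted p = 0.0472), as it was in the other lines. BIRC3 and BIRC5 fell in ES2, MV3 and PANC1. BIRC3 had log2 fold changes of -0.63, -0.73 and -0.48 and BIRC5, which encodes survivin and is made in dividing cells, of -0.50, -0.44 and -0.39. In A549 BIRC3 stood at 0.06, and its response differed between lines (adjusted p = 5.33e-05), whereas that of BIRC5 was not shown to (0.056).

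In the death receptor arm, 1 of 10 genes fell and 2 rose in A549, 3 of 9 fell and 1 rose in ES2, 2 of 8 fell and 2 rose in MV3, and 2 of 9 fell and 1 rose in PANC1. In that order of lines, 30.0%, 44.4%, 50.0% and 33.3% passed, beside 13.8%, 23.5%, 35.7% and 24.8% of all genes tested. TNFRSF10A, a receptor for TRAIL, fell in ES2, MV3 and PANC1, with log2 fold changes of -0.71, -0.82 and -0.47. TNFRSF1A, the main receptor for TNF, rose in A549 and ES2 by 0.42 and 0.21 and fell in PANC1, with -0.28 (difference between lines, adjusted p = 6.5e-06). The ES2 call of TNFRSF1A was lost on TPM (adjusted p = 0.0741). FADD, the adaptor of death receptors, rose in PANC1 by 0.47 ± 0.08 (adjusted p = 0.00928; on TPM -0.27, or 0.40 above the median) and fell in ES2, with -0.25 ± 0.06 (adjusted p = 0.0269), a call lost on TPM (0.122) and with the same protein-coding sum (0.205).

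Among 12 regulators of the members, YWHAZ fell in all 4 lines. The study chose YWHAZ as a target mRNA after its fall in the knockdown lines, these 4 among them, so this is the same observation. YWHAZ encodes a 14-3-3 protein, the kind that holds phosphorylated BAD away from mitochondria. It changed by -0.86 in A549, -0.77 in PANC1, -0.43 in ES2 and -0.35 in MV3, and a link to the BAD values was not tested. ATF4, a transcription factor of the stress response upstream of PMAIP1, fell in A549, ES2 and MV3, with -0.24, -0.35 and -0.61. CDKN1A and MDM2, standard p53 targets as are BAX, BBC3 and PMAIP1, fell in 3 lines each. CDKN1A changed by -0.43 in A549, -0.94 in ES2 and -0.57 in MV3, and by -0.35 in PANC1 (adjusted p = 0.101). The PANC1 change of CDKN1A passed with the same protein-coding sum (-0.40, adjusted p = 0.0423). It also passed on TPM (-1.07, or -0.39 relative to the median of all genes, adjusted p = 0.000987). MDM2 changed by -0.47 in A549, -0.27 in MV3 and -0.85 in PANC1, and by -0.08 in ES2 (adjusted p = 0.451); its MV3 call was lost with the same protein-coding sum (0.0911).

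**Figure D4:**
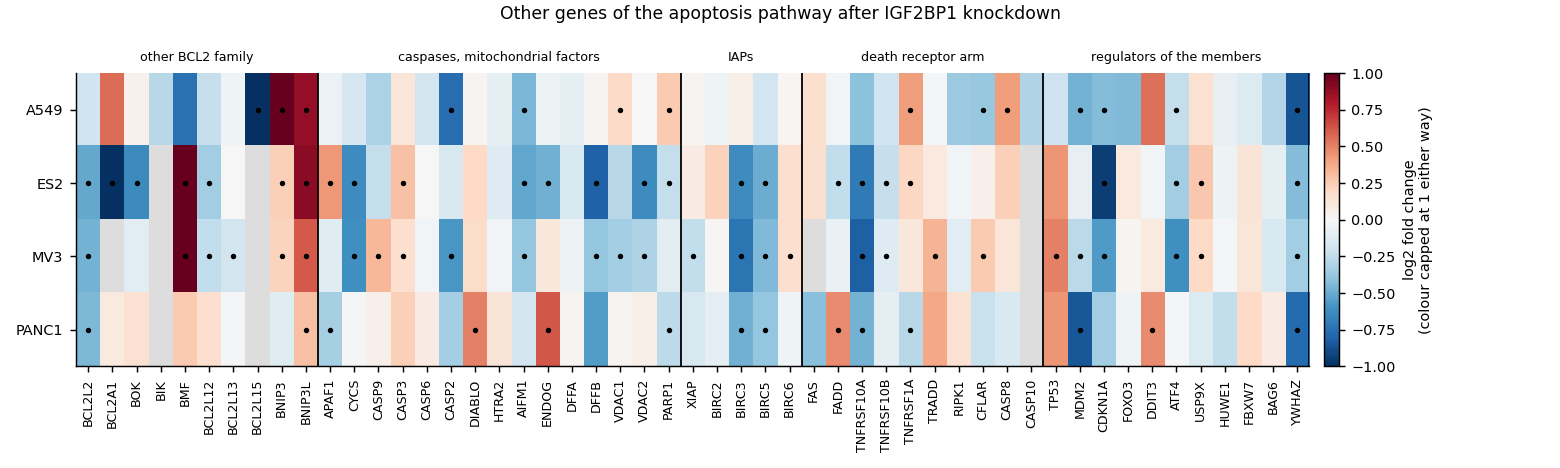
Log2 fold change (colour, siI1 minus siC, capped at 1 in either direction) of pathway genes tested in at least 1 line, by cell line (rows) and list (blocks); black dots mark adjusted p under 0.05 and grey fields genes not tested. BNIP3L is red and YWHAZ blue with a dot in all 4 rows, and BCL2L2, BIRC3, BIRC5 and TNFRSF10A carry dots in ES2, MV3 and PANC1. The PANC1 row is on the FPKM scale. On TPM the median of all its genes is -0.68, and BNIP3L, ENDOG and FADD turn negative there. With the same protein-coding sum these genes stay positive in PANC1 (0.25, 0.58 and 0.43).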

How the data were processed

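According to the labels and the study's methods, the authors depleted ribosomal RNA, made libraries with a directional kit, clipped adapters with cutadapt 1.14, aligned reads to hg38 with HISAT2 2.1.0 and counted reads per gene with featureCounts 1.5.3. The authors deposited 1 table per line, whose values are FPKM: per kilobase of the deposited gene length (in bases) and scaled to a TMM-adjusted library total; the unit is not named and was read from the values, which are whole multiples of 1 read (within 0.01 reads) for all genes. Columns of the authors' own edgeR comparison in the deposited tables hold a log2 fold change, a p-value and an adjusted p-value per gene and were not used. The chi-square per gene between replicates was 1.544 to 15.107 over 24 pairs, above sampling noise, so all 24 libraries were kept; the methods call the 3 replicates of a group biological.

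Here log2(FPKM + 0.5) was tested per line with limma 3.58.1 in R 4.3.3 (lmFit, eBayes with trend, two-sided, no covariate) over genes averaging 0.5 FPKM or more; the pseudocount understates changes of low genes. Differences between lines were tested by a moderated F over the 24 libraries, among 12816 genes tested in all lines. The code was tested on simulated data. Pathway genes are named if they passed in the same direction in at least 3 lines or had the largest change of their list in a line; 1 gene of the lists is counted but not reported by name or drawn. The members and lists were chosen with earlier results of these data known. Alternatives were the pseudocount (0.1 or 1), the filter, the scaling, voom on recovered reads, a replicate block and leaving out each library; the protein-coding scaling and a minimum of 10 reads were added after seeing the data. 3'UTRs are the longest per gene in GENCODE release 44, newer than the authors' annotation. Python 3.11.15 with pandas 2.3.3, scipy 1.17.1 and matplotlib 3.10.9 was used for the rest.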

Additional observations from a re-analysis of the deposited data

Results flagged for a closer look

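The response to knockdown differed between the 4 cell lines for 6 of the 9 members tested in all of them (moderated F test of the difference itself, limma over the 24 libraries, Benjamini-Hochberg over 12816 genes). The adjusted p was 4.15e-07 for MCL1, 6.59e-05 for BAD, 0.00385 for BID, 0.00414 for PMAIP1, 0.0231 for BAK1 and 0.0267 for BCL2L11, where 45% of all genes tested passed. MCL1 passed under all 33 alternative settings, BAD and BID under 32, PMAIP1 under 31, BAK1 under 29 and BCL2L11 under 27 of 32. PANC1 differs from the other lines in harvest time as well, so line and time cannot be told apart for it. BAX, BCL2L1 and BBC3 did not pass, with 0.107, 0.106 and 0.735, although on TPM BAX (0.012) and BCL2L1 (8.48e-06) did and BAX did without ES2 siC replicate 3 (0.0488), and BCL2 could not be tested in all lines.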

How the results depend on the processing

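The 38 log2 fold changes of members gave 567 values under alternatives, of which 490 kept direction and side of the threshold, 17 came to pass, 44 no longer passed and 16 turned. The number of members called kept within 1.5 times its value except as follows. In A549 (3 members) it was 1 with the replicate block and 1 to 2 when 1 library was left out, with 1 left without siC replicate 1, siI1 replicate 1 or siI1 replicate 2. In ES2 (2) it was 4 with voom. In PANC1 (1 lower, 3 higher) it was 6 lower and 0 higher with the same sum of FPKM, 1 without a filter and 1 to 3 when 1 library was left out, with 1 left without siC replicate 1, siI1 replicate 1 or siI1 replicate 3 and 2 without siI1 replicate 2. The count of members differing between lines was 4 to 6 in all settings (6 as reported).

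Values turned with the same sum of FPKM for BAD in ES2 (0.039) and in PANC1 for MCL1 (-0.702), BAX (-0.681), BAK1 (-0.372), BID (-0.445), PMAIP1 (-0.341), BBC3 (-0.28) and BAD (-0.087), and with the same protein-coding sum for BAD in ES2 (0.11), BID in MV3 (0.008) and MCL1 in PANC1 (-3.7e-05). The PANC1 turns on TPM follow the shift of the median of all genes to -0.68, and the cause of that shift was not tested. With the same protein-coding sum the median was -0.07 in PANC1, 0.10 in ES2 and 0.13 in MV3. With 1 library left out, log2 fold changes that turned ranged from -0.016 to 0.16 for BAD in A549, from -0.009 to 0.088 for MCL1, from -0.039 to 0.092 for BAX and from -0.078 to 0.066 for BCL2L11 in PANC1.

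The replicate numbers did not pair the libraries: the correlation of same-numbered deviations was -0.122 to 0.12 and not above 0.1 for all pairs of any line, although each PANC1 library matched its own number best. With the replicate block, BAK1 (adjusted p = 0.0764) and BAX (0.126) in A549, BAX in MV3 (0.1) and BID in PANC1 (0.0866) were not called, and no other call changed. BCL2 rested on 6 to 16 reads per library in A549 and 0 to 3 in PANC1 and could not be tested there.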
